A study of Mus musculus with 8 samples.

Results

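The 42 genes described here are the ligands, receptors, secreted inhibitors and a few nuclear genes of Wnt signalling, taken by symbol from a table of 23358 genes. The symbol rule took every gene named as a numbered Wnt (19 ligands), Fzd (10 receptors), Sfrp of the first 5 or Dkk of the first 4 (8 inhibitors), and added the co-receptors Lrp5 and Lrp6 and the 3 genes Axin2, Lef1 and Tcf7. RNA-seq libraries came from mice aged 4 weeks and from 2 regions of the cervical loop (CL), where the continuously growing incisor is renewed. The CLH tissue is the head of the loop, where dental epithelial stem cells reside, and the CLT tissue is its tail, which holds their progenies. In cKO mice, Cre recombinase driven by the Krt14 promoter deletes exons 8 to 10 of floxed Med1, a subunit of the Mediator complex, and the Ctrl mice were littermates without Cre. All mice were on a C57BL/6 background, and the deletion is limited to cells with Krt14 promoter activity. Each library pooled tissue of several mice, males and females alike, and each of the 4 groups (Ctrl CLH, cKO CLH, Ctrl CLT and cKO CLT) had 2 libraries, numbered 1 and 2 as in the labels. Per the study's methods the duplicates came from 2 litters, and no source used here says which number belongs to which litter. The p-values therefore measure the spread between pools, and exact permutation of 2 against 2 libraries has 0.333 as its smallest p.

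Wnt proteins are lipid-modified secreted ligands that bind Frizzled (Fzd) receptors together with the co-receptors Lrp5 or Lrp6. In the canonical branch this stabilises beta-catenin, which enters the nucleus, binds the DNA-binding factors Lef1 and Tcf7 and their relatives, and switches on targets such as Axin2, itself a brake on the pathway. Sfrp proteins resemble the ligand-binding part of Fzd and capture Wnts outside the cell, whereas Dkk1, Dkk2 and Dkk4 bind the Lrp co-receptors. The pathway is known for its roles in tooth development, in hair follicle formation and in the growing hair shaft, where Lef1 is active in the cells that give rise to it.

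The deposited values were RPKM, that is, reads relative to gene length in kilobases and to library size. Totals recovered from these values were 26591615 to 34420183 reads per library, of which 82.2% to 85.6% lay on genes of the table. Med1 could not check the labels, since its RPKM over the whole gene was 7.71 and 9.12 in Ctrl CLH against 7.10 and 7.04 in cKO CLH and 4.83 and 8.71 in Ctrl CLT against 9.15 and 8.96 in cKO CLT, and the deleted exons make up 239 of its 7589 bases (3.15%). Directions below are therefore those of the libraries labelled cKO against those labelled Ctrl. Between the 2 libraries of a group, the median absolute log2 difference over 14148 genes was 0.404 in Ctrl CLT and 0.0922 to 0.113 in the other 3 groups. A difference of over 1.5-fold was seen for 34.6% of genes between the 2 Ctrl CLT libraries.

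The CLT libraries also stood apart in the markers of cell types. The labels call the tissue dental epithelial cells. The summed RPKM of 7 ameloblast genes, which encode enamel proteins and their proteases, reached 84580 and 37390 for Ctrl CLT but only 19.7 and 15.8 for cKO CLT, where 3 of the 7 (Enam, Mmp20 and Klk4) were under 1 RPKM in both libraries. The sum of 6 hair shaft and inner root sheath genes was 2724 for Ctrl CLT 1, 10.3 for Ctrl CLT 2, and 8247 and 9084 for cKO CLT. The same order held for 4 cornified epidermis genes (219, 3.69, 660 and 670), for 6 skeletal muscle genes (776, 58.0, 2062 and 2264) and for 5 melanocyte genes (129, 9.89, 394 and 396). In the 4 CLH libraries these 4 sums lay between 5.48 and 7.45, between 5.12 and 13.5, between 32.3 and 37.3, and between 3.60 and 3.85. Odontoblast and bone genes summed to 2856 and 3393 for Ctrl CLT and to 1016 and 1172 for cKO CLT, and 6 of these 8 genes, including Dspp, Bglap and Sp7, were under 1 RPKM in both cKO CLT libraries. Mesenchyme genes summed to 1151 and 1973 for Ctrl CLT and to 1265 and 1360 for cKO CLT, a sum carried by Col3a1, which was higher in both cKO CLT libraries, whereas 5 of the 8 genes, such as Lum and Vim, were lower in both than in either Ctrl CLT library. Basal epithelial genes, Krt14 among them, summed to 1363 and 867 for Ctrl CLT and to 1756 and 1981 for cKO CLT, with 5 of 6 higher. Genes of Schwann and neural cells summed to 35.4 and 30.0 for Ctrl CLT and to 94.2 and 96.4 for cKO CLT (4 of 4 higher). Dermal papilla genes summed to 36.9 and 97.8 and to 17.7 and 20.2 (4 of 5 lower), and leukocyte genes to 129 and 178 and to 106 and 99.5 (5 of 5 lower). Ctrl CLT 1 thus held 31.4% of the mean cKO CLT sum for hair shaft and inner root sheath, 33.0% for cornified epidermis, 35.9% for skeletal muscle and 32.6% for melanocytes. Whether this library was mixed with, or dissected to include, tissue other than its label says was not tested, and each Ctrl CLT mean and each difference within CLT includes it. Its value lay between Ctrl CLT 2 and both cKO CLT libraries for 19 of the 35 Wnt pathway genes that were tested (54.3%), against 54.1% of all genes tested. The part of these other cell types in the differences given below was not tested, and in bulk tissue fewer cells of a type and less RNA per cell cannot be told apart.

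**Figure D1:**
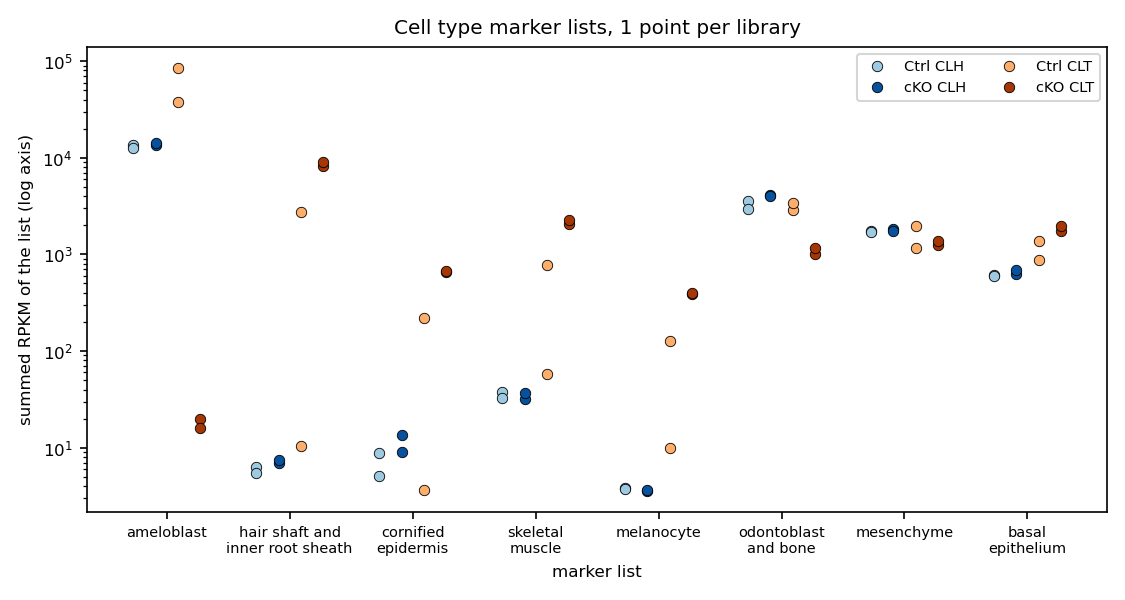
Summed RPKM of 8 cell type marker lists (log axis), 1 point per library, coloured by group. The 2 cKO CLT points are the lowest for ameloblast genes (19.7 and 15.8) and the highest for hair shaft and inner root sheath genes (8247 and 9084), where Ctrl CLT 1 (2724) lies far above Ctrl CLT 2 (10.3).

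Of the 42 genes, 35 reached 1 RPKM in at least 2 of the 8 libraries and were tested on log2(RPKM + 1). For 1 of them, Wnt2, the libraries at that level were those of cKO CLT alone, so it entered the test through the group where it was highest. In CLT, 2 of the 35 passed an adjusted p of 0.05 (limma, Benjamini-Hochberg over 14148 genes), against 1.75% of all genes tested. Both were lower in cKO, namely the ligand Wnt7a and the inhibitor Dkk2, against 1.68% of all genes called in that direction and 0.0777% called higher. In all, 19 of the 35 had an unadjusted p under 0.05, where 36.2% of all genes did. The cKO and Ctrl libraries did not overlap for 26 of the 35 (11 higher and 15 lower in cKO), against 72.2% of all genes. The median log2 difference was -0.07 over the 35 genes and -0.01 over all genes. The count depended on single libraries. Without Ctrl CLT 1, 31 of the 35 passed (69.5% of all genes), without Ctrl CLT 2, 25 passed (52.1%), and 0 passed without either cKO CLT library. With the spread estimated over all 8 libraries in 1 fit, 22 passed (43.7%).

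In CLH, 0 of the 35 passed with limma or with voom on the recovered reads, and 0.0% of all genes did. An unadjusted p under 0.05 was found for 4 (Wnt6, Wnt7b, Fzd4 and Lrp5, all with the higher mean in cKO), where 7.26% of all genes had one. The log2 differences of the 35 genes ranged from -0.45 (Sfrp2) to 0.38 (Wnt6), with a median of 0.02 against -0.01 over all genes. The 2 genotypes did not overlap in CLH for 13 of the 35 genes, against 38.7% of all genes. The cKO effect differed between the regions for 13 of the 35, against 17.6% of all genes, 7 with the more positive effect in CLT (8.05% of all genes) and 6 with the more negative one (9.58%). This interaction test takes 1 spread per gene for all 4 groups, although the 2 Ctrl CLT libraries differed more than those of any other group.

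Between regions, 31 of the 35 differed between cKO CLT and cKO CLH, against 74.0% of all genes, 13 higher in CLT (28.9%) and 18 lower (45.1%). The 4 that did not pass were Wnt7b, Wnt9a, Lrp5 and Lrp6. In Ctrl, 0 of the 35 passed between CLT and CLH with limma or voom, against 0.00707% of all genes, and 12 had an unadjusted p under 0.05, where 13.1% of all genes did. The number that passed rose when either Ctrl CLT library was left out, which leaves 1 library in that group. The median over all genes was itself -0.18 in cKO and -0.13 in Ctrl for CLT against CLH, and 0.02 and 0.01 with median-of-ratios scaling.

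**Figure D2:**
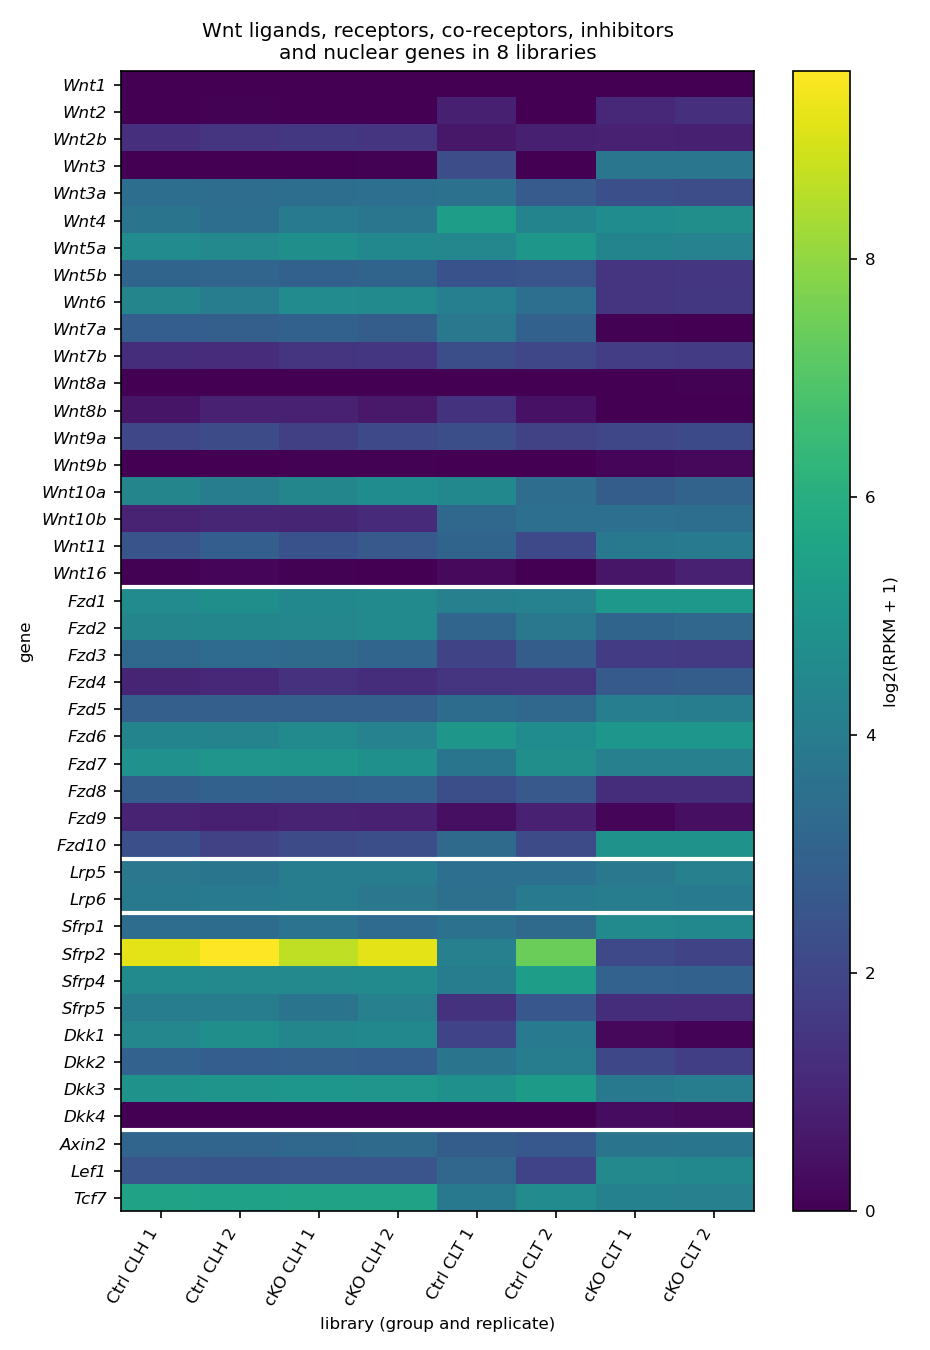
Level of each of the 42 genes in each of the 8 libraries as log2(RPKM + 1), in blocks of ligands, receptors, co-receptors, inhibitors and nuclear genes. The 4 CLH columns look alike within each gene, while the 2 Ctrl CLT columns differ from each other, as for Wnt3 (3.84 and 0.0 RPKM) and Sfrp2 (17.1 and 170 RPKM).

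Of the 19 ligands, 14 were tested. In CLT, 1 was called lower in cKO (Wnt7a), none was called higher, and the median log2 difference was -0.30. Wnt7a is a ligand of epithelia known for its role in limb patterning. Its values were 6.31 and 6.54 RPKM for Ctrl CLH, 6.79 and 6.17 for cKO CLH, 13.3 and 6.93 for Ctrl CLT and 0.0337 and 0.0231 for cKO CLT. Both cKO CLT libraries were near 0, and the other 6 were at 6.17 RPKM or more. It fell in cKO CLT (log2 difference -3.37 with an SE of 0.34, adjusted p = 0.046), and the effect differed from that in CLH. The call in CLT was lost with voom on the recovered reads (adjusted p = 0.075) and with no filter on low values (adjusted p = 0.092), the highest of 11 alternatives that ranged from 0.00089. By reads, 5 in the 2 cKO CLT libraries stood against 1818 in Ctrl CLT, a 360-fold difference with a 95% interval of 154 to 1110 for counting error only. Wnt8b, which was not tested, had the same split, with no read in either cKO CLT library and 160 and 34 reads in Ctrl CLT, which makes it at least 64.0-fold lower by a floor of 3 reads over the group.

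Wnt6 and Wnt10a, both ligands of the tooth, lie side by side on chromosome 1 (mm10, chr1:74771892-74785319 and chr1:74792019-74804175), 6.70 kb apart with no other gene of the table between them. Wnt6 was at 19.5 and 15.7 RPKM for Ctrl CLH, 23.5 and 22.8 for cKO CLH, 16.7 and 10.3 for Ctrl CLT and 1.73 and 1.90 for cKO CLT. The cKO libraries were the highest in CLH and the lowest in CLT (log2 difference -2.33 with an SE of 0.28, adjusted p = 0.053 in CLT, and log2 difference 0.38 with an SE of 0.11, adjusted p = 0.69 in CLH). Wnt10a was at 19.8 and 15.9 RPKM for Ctrl CLH, 20.3 and 24.2 for cKO CLH, 21.3 and 9.86 for Ctrl CLT and 6.11 and 7.27 for cKO CLT, so that the cKO libraries again lay above Ctrl in CLH and below it in CLT (log2 difference -1.02 with an SE of 0.40, adjusted p = 0.16 in CLT). Its Ctrl CLT libraries differed 2.16-fold. Without Ctrl CLT 1 the Wnt10a difference was -0.50, and without Ctrl CLT 2 it was -1.54.

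Wnt3, a canonical ligand used by skin and hair follicle epithelium, showed the opposite pattern. Its values were 0.00933 and 0.0119 RPKM for Ctrl CLH, 0.0190 and 0.0326 for cKO CLH, 3.84 and 0.0 for Ctrl CLT and 12.6 and 12.5 for cKO CLT. The 2 cKO CLT libraries were level with each other, Ctrl CLT 1 lay between, and the remaining 5 were at 0.0326 RPKM or less. Of the Ctrl pair, 1 library held 350 reads and the other none, and the test did not pass (log2 difference 2.62 with an SE of 0.82, adjusted p = 0.11). The log2 difference became 3.76 when Ctrl CLT 1 was left out and 1.48 when Ctrl CLT 2 was. Against cKO CLH, where 5 reads were found in both libraries together, cKO CLT held 2159 reads, 494-fold more (95% counting interval 211 to 1520), with log2 difference 3.72 with an SE of 0.10, adjusted p = 9.7e-09. Wnt9b, its neighbour 24.4 kb away on chromosome 11, had 16 and 19 reads in cKO CLT and 3 and 0 in Ctrl CLT, and was below the level tested.

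The 300 bases around the start of Wnt3 and of Wnt7a, from 250 before to 50 after it, are shown because these were the ligands with the highest and the lowest log2 difference in CLT of the 14 tested. Both windows are from RefSeq on GRCm38.p6, written 5′ to 3′ on the gene's strand. Neither window holds CTTTGA, a form of the core of the site bound by Lef1 and Tcf7, on either strand (read as TCAAAG on the other). Only these letters were searched, so other forms of the core were not counted. CTTTGA is found, on either strand, in 16.0% of all 32851 windows of this length.
Wnt3, chr11:103773925-103774224, plus strand: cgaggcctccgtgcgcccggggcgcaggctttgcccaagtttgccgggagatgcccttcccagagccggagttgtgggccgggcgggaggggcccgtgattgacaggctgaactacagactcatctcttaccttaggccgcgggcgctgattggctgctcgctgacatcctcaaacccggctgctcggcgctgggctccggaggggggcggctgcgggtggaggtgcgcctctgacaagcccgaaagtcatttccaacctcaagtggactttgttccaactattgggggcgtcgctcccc
Wnt7a, chr6:91411304-91411603, minus strand: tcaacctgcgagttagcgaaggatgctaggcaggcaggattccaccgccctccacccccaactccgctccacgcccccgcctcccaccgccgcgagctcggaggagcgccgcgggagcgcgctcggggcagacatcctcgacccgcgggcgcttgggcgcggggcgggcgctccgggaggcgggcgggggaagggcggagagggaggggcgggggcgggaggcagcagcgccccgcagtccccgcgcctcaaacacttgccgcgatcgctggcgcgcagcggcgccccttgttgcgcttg

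Wnt11, a ligand mostly linked to signalling without beta-catenin, had values of 4.65 and 6.18 RPKM for Ctrl CLH, 4.36 and 5.36 for cKO CLH, 7.49 and 3.35 for Ctrl CLT and 13.8 and 13.9 for cKO CLT. The cKO CLT libraries were the highest, but the Ctrl CLT pair differed 2.24-fold and the test did not pass (log2 difference 1.29 with an SE of 0.37, adjusted p = 0.1). Of its 2 promoter windows, the upstream one (chr7:98834862-98835161, plus strand) is shown because it holds 1 match to CTTTGA, in capitals as TCAAAG. The first base of the match is 50 bases before the start.
Wnt11: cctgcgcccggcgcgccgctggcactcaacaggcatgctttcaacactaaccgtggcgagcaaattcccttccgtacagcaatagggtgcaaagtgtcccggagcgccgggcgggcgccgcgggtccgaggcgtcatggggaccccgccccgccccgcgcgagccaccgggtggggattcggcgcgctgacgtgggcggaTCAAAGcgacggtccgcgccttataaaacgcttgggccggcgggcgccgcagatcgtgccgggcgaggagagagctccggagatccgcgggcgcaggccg

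Wnt2 was at 0.0 and 0.0528 RPKM for Ctrl CLH, 0.0 and 0.0160 for cKO CLH, 0.808 and 0.0 for Ctrl CLT and 1.10 and 1.51 for cKO CLT. Reads in CLH were 1 in cKO and 3 in Ctrl, so the Wnt2 signal in all 8 libraries lay in cKO CLT and Ctrl CLT 1 (log2 difference 0.77 with an SE of 0.36, adjusted p = 0.2). Wnt10b, a canonical ligand of hair follicle and mammary epithelium, was at 0.887 and 1.02 RPKM for Ctrl CLH, 0.998 and 1.28 for cKO CLH, 8.46 and 10.3 for Ctrl CLT and 10.2 and 9.94 for cKO CLT. All 4 CLT libraries were above all 4 CLH libraries, and within CLT the log2 difference was 0.10 ± 0.17 (SE). Its neighbour Wnt1, 11.7 kb away on chromosome 15, had no read in any library.

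Wnt4, a ligand of many epithelia, was at 11.7 and 10.1 RPKM for Ctrl CLH, 13.9 and 12.7 for cKO CLH, 40.0 and 18.8 for Ctrl CLT and 24.1 and 25.9 for cKO CLT. The CLT libraries were again all above those of CLH, and Ctrl CLT 1 was the highest of the 8. Within CLT the difference was -0.13 ± 0.39 (SE), and it turned to 0.39 without Ctrl CLT 1 and was -0.66 without Ctrl CLT 2. Wnt5a, the main non-canonical ligand of mesenchyme, was at 23.4 and 22.0 RPKM for Ctrl CLH, 26.4 and 21.0 for cKO CLH, 20.6 and 32.3 for Ctrl CLT and 19.1 and 17.8 for cKO CLT. Its cKO CLT libraries were the lowest 2 of the 8, close to Ctrl CLT 1 (log2 difference -0.47 with an SE of 0.26, adjusted p = 0.26).

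Wnt5b, a close relative of Wnt5a, had values of 7.54 and 7.77 RPKM for Ctrl CLH, 6.80 and 7.48 for cKO CLH, 4.28 and 4.70 for Ctrl CLT and 1.72 and 1.84 for cKO CLT. Levels stepped down from CLH to Ctrl CLT and again to cKO CLT, without overlap, and replicates lay close together (log2 difference -0.98 with an SE of 0.17, adjusted p = 0.068). Wnt3a, a canonical ligand next to Wnt9a on chromosome 11 (16.2 kb apart), was at 10.1 and 9.79 RPKM for Ctrl CLH, 10.1 and 10.4 for cKO CLH, 10.8 and 5.71 for Ctrl CLT and 4.08 and 3.75 for cKO CLT, where Ctrl CLT 1 lay above the CLH libraries and Ctrl CLT 2 between them and cKO CLT (log2 difference -0.86 with an SE of 0.33, adjusted p = 0.15). Wnt9a stayed between 2.55 and 3.93 RPKM in all 8 libraries, with a log2 difference of 0.03 ± 0.23 (SE) in CLT.

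Wnt7b, the paralog of Wnt7a, was at 1.40 and 1.33 RPKM for Ctrl CLH, 1.80 and 1.82 for cKO CLH, 3.90 and 3.11 for Ctrl CLT and 2.33 and 2.16 for cKO CLT. Unlike Wnt7a it kept over 2 RPKM in both cKO CLT libraries (log2 difference -0.47 with an SE of 0.19, adjusted p = 0.17). Wnt2b was at 1.52 and 1.73 RPKM for Ctrl CLH, 1.90 and 1.70 for cKO CLH, 0.545 and 0.800 for Ctrl CLT and 0.839 and 0.790 for cKO CLT, with all CLT libraries under those of CLH and no gap between genotypes. The remaining untested ligands were Wnt8a, with 3 reads over all libraries, and Wnt16, with 24 and 38 reads in cKO CLT, 9 and 0 in Ctrl CLT, and 0 to 5 in the CLH libraries. By reads, Wnt16 was 6.96-fold higher in cKO than Ctrl CLT, with a 95% counting interval of 3.44 to 15.9.

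Summed over the 19 ligands, the RPKM of replicates 1 and 2 was 110 and 103 for Ctrl CLH, 120 and 119 for cKO CLH, 158 and 109 for Ctrl CLT, and 101 and 104 for cKO CLT. In order of group means per length, Ctrl CLH was led by Wnt5a (22.7 ± 1.02 RPKM, SD, n = 2), Wnt10a (17.8 ± 2.76) and Wnt6 (17.6 ± 2.68), the last 2 overlapping, and cKO CLH by the same 3 with overlapping values. The order in cKO CLT was Wnt4 (25.0 ± 1.21), Wnt5a (18.4 ± 0.923), Wnt11 (13.8 ± 0.0574), Wnt3 (12.5 ± 0.0275) and Wnt10b (10.1 ± 0.195), with no overlap between neighbours. In Ctrl CLT the leading 2, Wnt4 (40.0 and 18.8) and Wnt5a (20.6 and 32.3), were in opposite order in the 2 libraries. Wnt6 and Wnt10a together with Wnt7a made up 39.3% of the ligand sum in Ctrl CLH, 43.4% in cKO CLH, 29.3% in Ctrl CLT and 8.32% in cKO CLT.

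**Figure D3:**
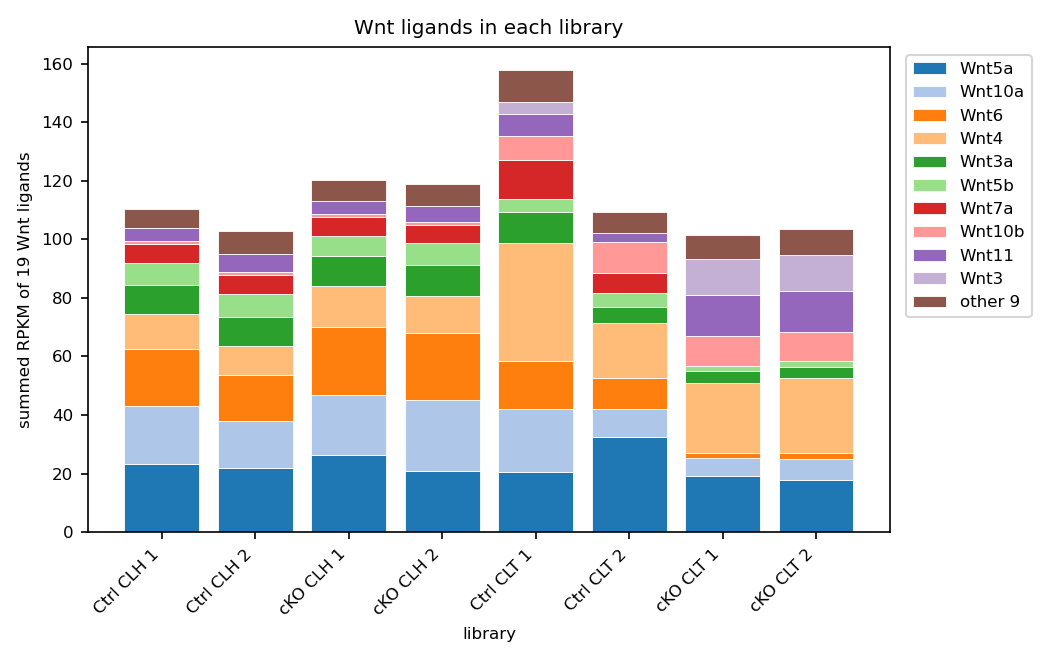
Stacked RPKM of the 19 Wnt ligands in each of the 8 libraries, with the 10 leading ligands coloured and the other 9 summed. The cKO CLT bars reach 101 and 104, with Wnt11 and Wnt3 taking a larger part and Wnt6, Wnt10a and Wnt7a a smaller one than in the CLH bars.

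Of the 10 Frizzled receptors, 9 were tested, and none passed within CLT with limma or voom. An unadjusted p under 0.05 with limma was found for 5 of the 9, where 36.2% of all genes had one. The cKO effect differed between CLT and CLH for 5 of the 9, against 17.6% of all genes. It was more positive in CLT for Fzd1, Fzd4, Fzd5 and Fzd10 and more negative for Fzd8. For Fzd10 that call (adjusted p = 0.043) was lost under 6 of 10 alternatives, with up to 0.058. Fzd10 was at 4.06 and 2.69 RPKM for Ctrl CLH, 3.63 and 3.90 for cKO CLH, 8.96 and 3.64 for Ctrl CLT and 29.1 and 29.0 for cKO CLT. The 2 cKO CLT libraries were close together, and the lower was 3.24 times the highest of the others (log2 difference 2.15 with an SE of 0.41, adjusted p = 0.071). Fzd10 in Ctrl CLT 1 exceeded Ctrl CLT 2 2.46-fold, and the log2 difference became 2.70 when Ctrl CLT 1 was left out and 1.59 when Ctrl CLT 2 was.

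Fzd4, the receptor for norrin as well as Wnts and known for its role in blood vessels, was at 0.993 and 1.08 RPKM for Ctrl CLH, 1.60 and 1.38 for cKO CLH, 1.82 and 1.79 for Ctrl CLT and 5.52 and 6.03 for cKO CLT. Its 2 Ctrl CLT libraries were alike, so that the difference hardly moved when either was left out (1.28 and 1.26, and log2 difference 1.27 with an SE of 0.17, adjusted p = 0.06 with all 4). The summed RPKM of 5 endothelial genes was 67.9 and 91.7 for Ctrl CLT and 67.0 and 67.8 for cKO CLT. Of these genes, 1 (Pecam1) was higher and 3 (Kdr, Tie1 and Egfl7) were lower in both cKO CLT libraries. The part of vessel cells in the Fzd4 difference was not tested. Fzd1 was at 23.4 and 26.1 RPKM for Ctrl CLH, 20.9 and 22.7 for cKO CLH, 17.1 and 17.8 for Ctrl CLT and 33.7 and 33.1 for cKO CLT. The Ctrl CLT libraries were the lowest 2 of the 8 and the cKO CLT libraries the highest 2 (log2 difference 0.90 with an SE of 0.13, adjusted p = 0.062). Fzd5 was at 6.41 and 6.51 RPKM for Ctrl CLH, 6.55 and 6.42 for cKO CLH, 9.36 and 8.44 for Ctrl CLT and 16.0 and 15.9 for cKO CLT, with the Ctrl CLT pair again close together (log2 difference 0.77 with an SE of 0.15, adjusted p = 0.072). Its exons in GENCODE M21 overlap the opposite-strand gene Gm38058 over 1233 bases, and the strand setting of the counting is not given in the sources used here.

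Fzd8 showed the reverse, at 6.16 and 6.87 RPKM for Ctrl CLH, 6.58 and 7.04 for cKO CLH, 3.95 and 5.43 for Ctrl CLT and 1.35 and 1.38 for cKO CLT. The cKO CLT libraries were the lowest without overlap (log2 difference -1.25 with an SE of 0.21, adjusted p = 0.065). Fzd3, a receptor of axon guidance and planar polarity, was at 8.34 and 9.26 RPKM for Ctrl CLH, 8.97 and 7.74 for cKO CLH, 2.87 and 6.13 for Ctrl CLT and 2.25 and 2.05 for cKO CLT, and Ctrl CLT 1 lay closer to cKO CLT than to Ctrl CLT 2 (log2 difference -0.74 with an SE of 0.35, adjusted p = 0.21). Fzd2 was at 19.4 and 20.3 RPKM for Ctrl CLH, 20.6 and 22.5 for cKO CLH, 7.60 and 13.2 for Ctrl CLT and 7.56 and 8.05 for cKO CLT, and Fzd7 at 27.7 and 30.7 RPKM for Ctrl CLH, 30.4 and 27.1 for cKO CLH, 12.3 and 25.3 for Ctrl CLT and 16.8 and 16.8 for cKO CLT. For both, all CLT libraries lay under all CLH libraries and the cKO CLT values overlapped the Ctrl CLT pair. Their direction within CLT depended on the Ctrl library kept, since the Fzd7 difference became -0.56 when Ctrl CLT 1 was left out and 0.42 when Ctrl CLT 2 was, and that of Fzd2 was -0.69 and 0.03.

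Fzd6, a receptor known for hair orientation, was at 19.2 and 18.3 RPKM for Ctrl CLH, 22.6 and 17.8 for cKO CLH, 32.3 and 23.9 for Ctrl CLT and 31.6 and 31.5 for cKO CLT, higher in CLT than in CLH with genotypes overlapping. Fzd9 was under 1 RPKM in all 8 libraries, with 5 and 18 reads in cKO CLT against 20 and 48 in Ctrl CLT. The summed RPKM of the 10 receptors was 117 and 123 for Ctrl CLH, 123 and 117 for cKO CLH, 96.7 and 106 for Ctrl CLT, and 144 for both cKO CLT libraries. The leading receptor was Fzd7 in all 4 CLH libraries and Fzd1 in both cKO CLT libraries, while the Ctrl CLT libraries were led by Fzd6 in replicate 1 and Fzd7 in replicate 2.

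The 2 co-receptors were close to the level of CLH in all CLT libraries. Lrp5 was at 12.8 and 12.1 RPKM for Ctrl CLH, 15.2 and 15.8 for cKO CLH, 10.2 and 10.4 for Ctrl CLT and 13.4 and 17.2 for cKO CLT. The cKO values were above Ctrl in both regions without overlap, and neither difference passed (log2 difference 0.52 with an SE of 0.18, adjusted p = 0.13 in CLT, and log2 difference 0.30 with an SE of 0.07, adjusted p = 0.69 in CLH). Lrp6 stayed between 10.5 and 15.7 RPKM over the 8 libraries, with a log2 difference of 0.25 ± 0.22 (SE) in CLT.

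**Figure D4:**
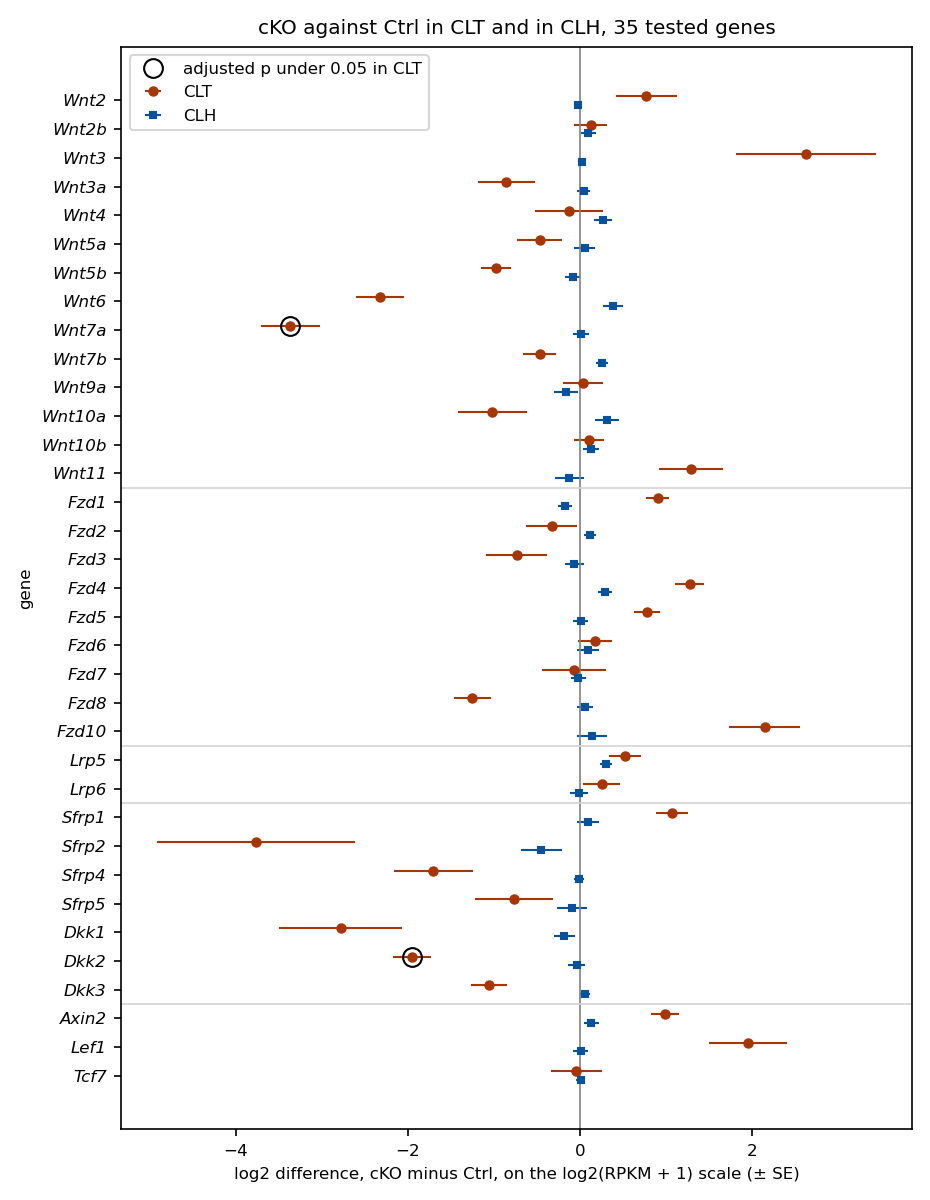
Difference of cKO minus Ctrl on the log2(RPKM + 1) scale with its standard error for the 35 tested genes, in CLT (circles) and CLH (squares), 2 libraries a group. Ringed circles are the 2 genes with an adjusted p under 0.05 in CLT, Wnt7a (-3.37) and Dkk2 (-1.96). The CLH values lie between -0.45 and 0.38 and those of CLT between -3.76 and 2.62.

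Of the 8 secreted inhibitors, 7 were tested, and 6 of them had negative log2 differences in CLT, with a median of -1.71 against -0.01 over all genes. Dkk2 was the 1 that passed, and 5 of 11 alternatives lost its call. Among 7 other inhibitors of the pathway, described further below, 4 differences in CLT were positive and 3 negative, with a median of 0.35. Dkk2, which binds the Lrp co-receptors, was at 7.06 and 6.25 RPKM for Ctrl CLH, 6.69 and 6.17 for cKO CLH, 12.0 and 15.4 for Ctrl CLT and 3.17 and 2.39 for cKO CLT. Ctrl CLT was the highest group and cKO CLT the lowest, with replicates close (log2 difference -1.96 with an SE of 0.22, adjusted p = 0.049). Over the alternatives its adjusted p ranged from 0.0012 to 0.092 and was above the threshold with voom on the recovered reads (0.065), no filter (0.092), a pseudocount of 0.1, no variance trend or robust eBayes. Dkk1, the classical antagonist of canonical signalling, was at 20.8 and 26.4 RPKM for Ctrl CLH, 20.1 and 21.1 for cKO CLH, 2.83 and 14.1 for Ctrl CLT and 0.144 and 0.0656 for cKO CLT. Its level in Ctrl CLT 2 was 4.98 times that of Ctrl CLT 1, and the cKO CLT libraries were near 0 (log2 difference -2.78 with an SE of 0.72, adjusted p = 0.092). The ratio of group means was 80.8-fold, and the log2 difference became -3.77 when Ctrl CLT 1 was left out and -1.79 when Ctrl CLT 2 was. Against cKO CLH the fall to cKO CLT was far outside the spread of replicates (log2 difference -4.29 with an SE of 0.10, adjusted p = 5.1e-09).

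The Dkk1 window is shown because it holds 2 matches to CTTTGA, in capitals, 1 on each strand. Their first bases lie 174 and 117 bases before the start (RefSeq, GRCm38.p6, chr19:30549447-30549746, minus strand).
Dkk1: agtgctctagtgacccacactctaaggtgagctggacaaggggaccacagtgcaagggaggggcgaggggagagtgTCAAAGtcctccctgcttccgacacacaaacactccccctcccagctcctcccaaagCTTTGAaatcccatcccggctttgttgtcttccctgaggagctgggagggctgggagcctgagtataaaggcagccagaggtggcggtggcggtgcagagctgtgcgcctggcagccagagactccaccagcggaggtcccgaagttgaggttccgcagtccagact

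Dkk3, a relative of the Dkk family that does not act on the Lrp co-receptors in the same way, was at 29.5 and 30.2 RPKM for Ctrl CLH, 31.6 and 30.5 for cKO CLH, 26.7 and 36.2 for Ctrl CLT and 13.7 and 15.1 for cKO CLT. The 2 cKO CLT libraries lay below all others (log2 difference -1.06 with an SE of 0.21, adjusted p = 0.072). Dkk4 had 9 and 7 reads in cKO CLT and 1 read in the other 6 libraries together. That makes it at least 5.39-fold higher in cKO than Ctrl CLT by a floor of 3 reads over the group, at a level far under the filter.

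Sfrp2 was the most abundant of the 42 genes in CLH, at 576 and 761 RPKM for Ctrl CLH, 403 and 581 for cKO CLH, 17.1 and 170 for Ctrl CLT and 3.33 and 2.88 for cKO CLT. Within CLT the 2 Ctrl libraries differed 9.99-fold, and the test did not pass (log2 difference -3.76 with an SE of 1.15, adjusted p = 0.11). The ratio of group means was 30.2-fold, and the log2 difference became -5.39 when Ctrl CLT 1 was left out and -2.14 when Ctrl CLT 2 was. Between cKO CLT and cKO CLH it was the largest difference of the 35 on the log2(RPKM + 1) scale (log2 difference -6.89 with an SE of 0.16, adjusted p = 4.3e-09). By the ratio of group mean RPKM, Sfrp2 (158-fold) came after Wnt3 (486-fold), Wnt7a (228-fold) and Dkk1 (197-fold), whose lower groups were near 0. Sfrp4 was at 22.7 and 21.9 RPKM for Ctrl CLH, 21.7 and 22.5 for cKO CLH, 15.7 and 38.8 for Ctrl CLT and 7.02 and 6.80 for cKO CLT, with Ctrl CLT 2 the highest of all and both cKO CLT libraries the lowest (log2 difference -1.71 with an SE of 0.46, adjusted p = 0.096). Sfrp5, expressed in dental epithelial stem cells of the incisor, was at 15.1 and 15.5 RPKM for Ctrl CLH, 11.9 and 17.1 for cKO CLH, 1.64 and 5.07 for Ctrl CLT and 1.39 and 1.31 for cKO CLT. All 4 CLT libraries were under all 4 of CLH, and cKO CLT was close to Ctrl CLT 1 (log2 difference -0.77 with an SE of 0.46, adjusted p = 0.28).

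Sfrp1 was the exception in direction, at 9.76 and 9.44 RPKM for Ctrl CLH, 11.5 and 9.19 for cKO CLH, 11.3 and 8.82 for Ctrl CLT and 22.7 and 21.3 for cKO CLT. The cKO CLT libraries were the highest 2 and the other 6 overlapped (log2 difference 1.07 with an SE of 0.18, adjusted p = 0.065). Its effect differed between the regions, as did those of Dkk2 and Dkk3. Summed over the 8 inhibitors, RPKM was 681 and 871 for Ctrl CLH, 506 and 688 for cKO CLH, 87.3 and 289 for Ctrl CLT, and 51.7 and 50.1 for cKO CLT. Sfrp2 made up 79.6% to 87.4% of this sum in the CLH libraries, whereas Sfrp1 led it in cKO CLT (43.8% and 42.6%).

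Among the nuclear genes and targets, Axin2, a general readout of canonical signalling, was at 7.72 and 7.66 RPKM for Ctrl CLH, 8.16 and 8.89 for cKO CLH, 6.06 and 5.15 for Ctrl CLT and 11.9 and 12.2 for cKO CLT. The Ctrl CLT libraries were the lowest 2 of the 8, the cKO CLT libraries the highest 2, and each pair was close together. The difference did not pass the threshold (log2 difference 0.98 with an SE of 0.17, adjusted p = 0.064), and became 1.08 when Ctrl CLT 1 was left out and 0.88 when Ctrl CLT 2 was. The effect was larger in CLT than in CLH (adjusted p = 0.024, and 0.02 to 0.05 over 10 alternatives, of which the replicate block lost the call).

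Lef1, the DNA-binding factor through which beta-catenin acts in hair-forming cells, was at 4.75 and 4.66 RPKM for Ctrl CLH, 4.69 and 4.76 for cKO CLH, 7.85 and 2.80 for Ctrl CLT and 21.8 and 20.9 for cKO CLT. The 4 CLH libraries spanned 0.10 RPKM, and the lower of the cKO CLT libraries was 2.66 times the highest of the others. Ctrl CLT 1 was 2.80 times Ctrl CLT 2, and the test did not pass in CLT (log2 difference 1.95 with an SE of 0.45, adjusted p = 0.083), while its difference from the effect in CLH did (adjusted p = 0.049, lost under 7 of 10 alternatives, with up to 0.066). Without Ctrl CLT 1 the log2 difference was 2.56, and without Ctrl CLT 2 it was 1.34. Lef1 exons in GENCODE M21 overlap the antisense gene Gm43352 over 1208 bases, 13.7% of their bases. The deposited length of Lef1 was 2457 bases, and whether the overlap lies within them was not tested. Of its 4 windows, the one at an internal start (chr3:131156044-131156343, plus strand) is shown, as it alone holds CTTTGA, read as TCAAAG. The 2 matches are in capitals, and their first bases are 180 and 120 bases before that start.
Lef1: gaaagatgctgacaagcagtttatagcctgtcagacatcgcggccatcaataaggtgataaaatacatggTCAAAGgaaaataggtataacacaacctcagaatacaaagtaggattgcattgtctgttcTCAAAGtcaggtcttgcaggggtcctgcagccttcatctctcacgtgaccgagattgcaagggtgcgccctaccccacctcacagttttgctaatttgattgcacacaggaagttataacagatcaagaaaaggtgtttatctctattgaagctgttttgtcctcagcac

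Tcf7, the related factor, did not share the pattern of Lef1, at 44.6 and 44.2 RPKM for Ctrl CLH, 44.3 and 44.7 for cKO CLH, 13.5 and 23.3 for Ctrl CLT and 17.3 and 17.1 for cKO CLT. It was level over the 4 CLH libraries, lower in every CLT library, and in CLT the cKO values fell between the 2 Ctrl values (log2 difference -0.05 with an SE of 0.29, adjusted p = 0.92). The sign in CLT depended on the scaling and on the library kept, at 0.01 with median-of-ratios scaling, -0.42 without Ctrl CLT 1 and 0.32 without Ctrl CLT 2. By RPKM, which is per length, mean Tcf7 was 9.41 times Lef1 in cKO CLH, whereas mean Lef1 was 1.24 times Tcf7 in cKO CLT.

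**Figure D5:**
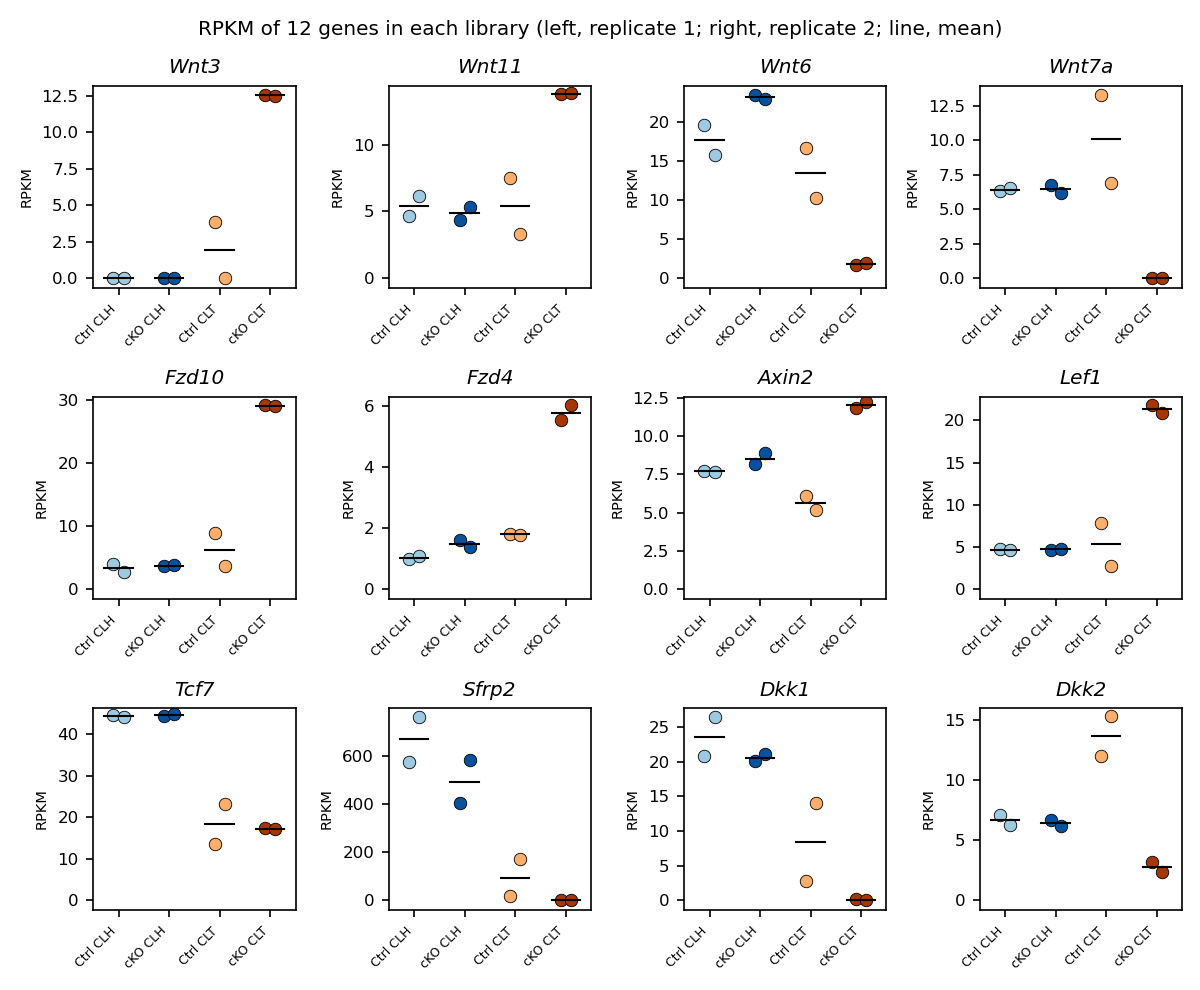
RPKM of 12 of the genes in each library, by group, with a line at the mean of 2 libraries. Wnt3, Wnt11, Fzd10, Fzd4, Axin2 and Lef1 have their highest values in both cKO CLT libraries, and Wnt6, Wnt7a, Sfrp2, Dkk1 and Dkk2 their lowest, while Tcf7 in cKO CLT (17.3 and 17.1) lies between the Ctrl CLT libraries (13.5 and 23.3).

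Promoter windows were found for 28 of the 42 genes. CTTTGA was present on either strand in at least 1 window of 5 of them (Fzd1, Lef1, Wnt5b, Wnt11 and Dkk1), or 17.9%, against 18.2% of 27025 genes. These letters are a description of the window and not a bound site.

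The other genes of the pathway were taken as 7 lists of 65 genes in the table, of which 62 were tested. In CLT, 1 of the 62 passed, against 1.75% of all genes, and this was Wif1, a secreted inhibitor that binds Wnts. Wif1 was at 230 and 220 RPKM for Ctrl CLH, 251 and 227 for cKO CLH, 152 and 221 for Ctrl CLT and 14.6 and 14.3 for cKO CLT. It fell in cKO CLT (log2 difference -3.58 with an SE of 0.23, adjusted p = 0.029) and its effect differed from that in CLH. The Wif1 call in CLT was lost with voom on the recovered reads (adjusted p = 0.056) and with no filter (adjusted p = 0.09), among 11 alternatives that ranged from 0.00018. The median log2 difference of the 62 genes was -0.03 in CLT. The 7 inhibitors tested in these lists, Wif1 among them, had 4 positive and 3 negative differences in CLT, with a median of 0.35. Of these, Dkkl1 had the highest difference (2.40, with 9.76 and 11.1 RPKM in cKO CLT and 3.71 and 0.0 in Ctrl CLT). Kremen2, a co-receptor of Dkk proteins, was at 5.58 and 6.29 in cKO CLT and 1.52 and 0.693 in Ctrl CLT (adjusted p = 0.021 for the difference from CLH, and 0.11 with voom).

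Of 9 genes of R-spondins, their Lgr receptors and the ligases Znrf3 and Rnf43, which together set how much Wnt receptor is at the cell surface, none passed within CLT with limma or voom. With limma, 5 had an unadjusted p under 0.05, where 36.2% of all genes did. Rspo4 had the lowest difference (-3.82), with 5.97 and 6.65 RPKM in cKO CLT, 49.7 and 208 in Ctrl CLT and 179 to 234 in CLH. Lgr5, a stem cell marker of hair follicle and gut, had the highest (2.28), at 7.37 and 6.53 in cKO CLT, 1.69 and 0.0 in Ctrl CLT, and 0.233 or less in CLH. The cKO effect differed from that in CLH for 4 of the 9, against 17.6% of all genes. It was more negative in CLT for Rspo4 (-4.07) and Lgr6 (-1.66) and more positive for Rspo3 (0.94) and Znrf3 (0.62). The Znrf3 call was lost under 5 of 10 alternatives and that of Rspo3 under 3 of 9.

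Of 3 genes of Wnt lipid modification and secretion, Wls, which carries Wnts to the surface, had the lowest difference (-0.85, with 83.0 and 75.9 RPKM in cKO CLT and 125 and 166 in Ctrl CLT), and Porcn, which attaches their lipid, the highest (0.53). The effect on Wls differed from that in CLH (adjusted p = 0.047), a call lost under 6 of 10 alternatives, with adjusted p from 0.032 to 0.079 (0.055 with voom). Among 9 genes of the beta-catenin destruction complex, Csnk1e was highest (1.26) and Btrc lowest (-1.21). The effects on Csnk1e, Csnk1a1, Apc and Btrc differed from those in CLH, by a test that 17.6% of all genes passed. The Csnk1a1 call (adjusted p = 0.041, limma) was lost under 4 of 10 alternatives, with up to 0.11. The Csnk1e call (0.028) was lost with the replicate block (0.053), and those of Apc and Btrc were kept under all 10. Of 14 genes of co-receptors and planar polarity, Celsr2 was highest (1.33) and Prickle1 lowest (-0.54), and Ptk7 alone passed the interaction test (-0.76, adjusted p = 0.044, and 0.052 with voom).

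Of 11 nuclear genes, Tle2, a co-repressor that binds Lef1 and Tcf7, had the lowest difference (-2.65). Its values were 45.7 and 51.5 RPKM for Ctrl CLH, 46.8 and 57.1 for cKO CLH, 18.2 and 42.6 for Ctrl CLT and 3.52 and 3.73 for cKO CLT, and its effect differed from that in CLH, as did that of Pygo1, a beta-catenin cofactor (-1.44). The Pygo1 call was lost with the replicate block (limma, adjusted p = 0.053). Bcl9l had the highest difference in CLT (0.94). Among 9 other targets, Nkd2 was highest (1.57) and Cd44 lowest (-1.57). Both, with Bambi (-0.99), passed the interaction test, against 17.6% of all genes, and none of 10 alternatives lost these calls. Over the 62 genes, that test was passed by 6 in the positive and 11 in the negative direction, against 8.05% and 9.58% of all genes, and by 12 in all with voom. Voom lost Wls, Ptk7, Csnk1a1, Kremen2 and Rspo3.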

How the data were processed

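RNA-seq of CLH and CLT tissue from Ctrl and cKO mice was used, with 2 libraries a group and groups taken from the sample labels. Per the labels and the study's methods, the authors trimmed reads with Trim Galore 0.4.3.1, aligned them with STAR 2.6.0b-1 to mm10, counted them per gene with featureCounts 1.6.3 and deposited RPKM for 23358 genes. The annotation, the strand setting and the total behind the RPKM are not given in the sources used here. Multiplied by gene length, 100% of the values were whole multiples of 1 step per library (tolerance 1e-04), which gave the reads behind each value. Intervals and floors of 3 reads cover counting error only.

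Genes with at least 1 RPKM in at least 2 of 8 libraries (14148) were tested on log2(RPKM + 1) with limma 3.58.1 in R 4.3.3 (eBayes with a variance trend, Benjamini-Hochberg, 0.05), each comparison within its own 4 libraries and the interaction over all 8. A difference on this scale understates the change of genes at low RPKM. The fits were tested on simulated data with the same spread in all 4 groups, which does not cover the wider spread of Ctrl CLT. Per-library values were given for genes with a group mean of at least 1 RPKM that passed in any of 5 comparisons or had a log2 difference of at least 0.5 between genotypes in CLT or CLH, and for Axin2, Lef1 and Tcf7. Of the other pathway genes, those past the threshold and each list's extremes in CLT were named. The 12 genes plotted one by one were picked with their values in view. The members and lists were chosen with earlier results of these data known. Replicate numbers were not taken as pairs, since the study's duplicates came from 2 litters but no source used here ties a number to a litter. Between genotypes, same-numbered libraries did not deviate together (r = 0.0656 in CLH and -0.192 in CLT across 14148 genes). Between the regions of a genotype they did so weakly (r = 0.195 in Ctrl and 0.307 in cKO), which the main fits left out. Promoter windows were RefSeq's on GRCm38.p6, and gene overlaps were taken from GENCODE M21. Sfrp2 also had 347 of its exon bases (16.1%) in such an overlap, with the antisense gene Gm26771. Smaller shares of exon bases, from 3.15% (Fzd6) to 8.8% (Wnt11), overlapped genes of the opposite strand for Wnt5a, Wnt7b, Wnt11, Fzd6 and Axin2. Gene names on more than 1 row (26) were not used.

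Marker lists covered ameloblast, hair shaft and inner root sheath, cornified epidermis, skeletal muscle, melanocyte, odontoblast and bone, mesenchyme, basal epithelium, dermal papilla, leukocytes, endothelium, Schwann and neural cells, and erythroid cells, whose sum stayed between 4.42 and 7.29 RPKM in all 8 libraries. The alternatives were pseudocounts of 0.1 and 0.5, other filters, median-of-ratios and quantile scaling, 1 fit of all libraries, no variance trend, robust eBayes, voom on the recovered reads, a replicate block, and each of the 8 libraries left out in turn.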

Additional observations from a re-analysis of the deposited data

Results flagged for a closer look

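For 13 of the 35 genes tested, the difference between cKO and Ctrl differed between CLT and CLH by the interaction test over all 8 libraries (limma, Benjamini-Hochberg), against 17.6% of all genes. That test takes 1 spread per gene for all 4 groups. The median absolute log2 difference between replicates was 0.404 in Ctrl CLT and 0.0922 to 0.113 in the other groups. For genes that vary more in Ctrl CLT, the adjusted p-values below can thus be too low. The interaction is the log2 difference in CLT minus that in CLH. It was negative for 3 ligands, Wnt7a (-3.38, adjusted p = 0.0062), Wnt6 (-2.71, adjusted p = 0.0067) and Wnt5b (-0.89, adjusted p = 0.023). It was also negative for the receptor Fzd8 (-1.31, adjusted p = 0.019) and for the inhibitors Dkk2 (-1.92, adjusted p = 0.0084) and Dkk3 (-1.12, adjusted p = 0.023).

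Positive interactions were those of 4 receptors, the inhibitor Sfrp1, and the nuclear genes Axin2 and Lef1. They were 2.01 for Fzd10 (adjusted p = 0.043), 1.07 for Fzd1 (adjusted p = 0.0087), 0.98 for Fzd4 (adjusted p = 0.022) and 0.77 for Fzd5 (adjusted p = 0.023). Sfrp1 had 0.97 (adjusted p = 0.034), Axin2 0.85 (adjusted p = 0.024) and Lef1 1.94 (adjusted p = 0.049). Of 10 alternatives, 7 lost the Lef1 call (adjusted p up to 0.066), 6 the Fzd10 call (up to 0.058) and 1, the replicate block, the Axin2 call (0.05), and none lost any of the other 10. Median-of-ratios and quantile scaling each called 5 positive and 6 negative interactions. Wnt6, Fzd1 and Dkk3 were the 3 of these 13 whose libraries did not overlap between genotypes in either region and lay in opposite directions in CLT and CLH. Of all genes, 72.2% did not overlap in CLT and 38.7% in CLH, and the share with both in opposite directions was not computed. In CLH none of the 3 passed with limma (adjusted p = 0.69 for Wnt6, 0.71 for Fzd1 and 0.8 for Dkk3). The count fell when any CLH or cKO CLT library was left out and rose when either Ctrl CLT library was. Every such fit leaves 1 library in a group.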

How the results depend on the processing

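The number of the 35 genes that passed in CLT was 2, and it was 1 with a pseudocount of 0.1, with no variance trend or with robust eBayes (Wnt7a each time, with Dkk2 lost), 0 with no filter on low values or with voom on the recovered reads, and 22 with all 8 libraries in 1 fit. With a replicate block it was 9, namely Wnt7a (adjusted p = 0.008), Dkk2 (0.032), Wnt6 (0.023), Wnt3 (0.039), Fzd10 (0.03), Sfrp2 (0.038), Sfrp4 (0.041), Dkk1 (0.037) and Lef1 (0.038), and with crossed replicate numbers, a pairing chosen after seeing the data because same-numbered CLT libraries deviated in opposite directions (r = -0.19 across 14148 genes), it was 0. The replicate block moved no other count by over 1.5 times. Leaving out 1 library gave counts from 0 to 31 in CLT, 0 in CLH each time, 1 to 28 for the difference between regions, 0 to 25 for CLT against CLH in Ctrl, and 30 to 31 in cKO. All 8 libraries in 1 fit called 7 genes between CLT and CLH in Ctrl. A group left with 1 library is assumed to vary like the others. The log2 difference in CLT turned sign for Tcf7 with median-of-ratios scaling (0.0063). With 1 library left out, it ranged over both signs for Wnt4 (-0.66 to 0.39), Wnt9a (-0.20 to 0.25), Wnt10b (-0.033 to 0.23), Fzd2 (-0.69 to 0.033), Fzd6 (-0.034 to 0.39), Fzd7 (-0.56 to 0.42) and Tcf7 (-0.42 to 0.32). Where no construction of the setting shows it, the cause was not tested. At these depths, genes with few reads, such as Wnt9b (at most 19 reads a library), Wnt16 (at most 38) and Dkk4 (at most 9), were under the level tested.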
